A study of Rattus norvegicus with 20 samples.

Results

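The genes described here are 32 markers of the cells that surround a kidney tubule, read in RNA from microdissected rat cortical collecting ducts. They comprise 20 genes of fibroblasts, vascular smooth muscle and pericytes and 12 genes of endothelial cells, out of 32545 genes counted. Each was found by its symbol, and each symbol matched a single gene. The rats were male Sprague-Dawley animals of 5 weeks, and all of them, controls included, carried a subcutaneous minipump that released DDAVP, a vasopressin analogue, at 5 ng per hour. The sample records give 5 days of DDAVP for every rat. Water-loaded rats received 50 mL of water a day in gelled food and control rats 25 mL, and by the sample titles and the series' design text the tubules were dissected 1, 2 or 4 days later. The treatment protocol itself names 4 days of water load for every sample, and the day of each library here is that of its title. That makes 6 groups, of 3 rats for each treatment on days 1 and 4 and 4 rats for each on day 2, with 20 libraries in all. The duct was dissected by hand from collagenase-digested kidney and its RNA amplified by a method made for single cells, so each library is a small piece of tissue that can carry neighbouring cells with it.

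The cortical collecting duct is an epithelial tube of principal and intercalated cells, and none of the 32 genes is a defining gene of either. Around the tube lie peritubular capillaries, pericytes, scattered fibroblasts and, along the larger vessels, smooth muscle. Fibroblasts and smooth muscle secrete collagens, elastin and the small proteoglycans, smooth muscle and pericytes carry actin-binding contractile proteins, and endothelial cells are known by their VEGF and angiopoietin receptors and their junction proteins. In tissue of this kind, fewer cells of a type and less RNA per cell cannot be told apart.

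The libraries held 33527913 to 74868598 reads assigned to genes, and 12665 to 15266 genes had at least 1 read. Principal cell markers summed to between 13204 and 67634 CPM and intercalated cell markers to between 7186 and 13603 CPM in the 20 libraries, so the labelled tissue was present in each. The principal cell sum was weighted to a single gene, Aqp2, which made up 30163 of 36098 CPM in day 1 control 1. CPM is the read count of a gene as a share of the library's effective size after trimmed-mean (TMM) normalisation. A count of 3 reads corresponds to 0.0414 to 0.0926 CPM, and values at or below that are treated as not above the floor; such limits cover counting error only.

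The library of day 1 control rat 1 stood apart from the other 19 before any comparison was made. Its 20 stromal and muscle genes summed to 13603 CPM, which was 0.875% of its reads on genes. In the other 19 libraries the same sum lay between 42.8 and 511 CPM with a median of 166 CPM. Its endothelial sum of 1735 CPM was also the highest, against 37.2 to 1097 CPM and a median of 337 CPM elsewhere, a smaller distance. The normalisation factor of this library was the lowest of the 20 at 0.645, and the next lowest was 0.686 in day 1 water-loaded rat 2. The comparisons below that rest on this library are therefore given with and without it.

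**Figure D1:**
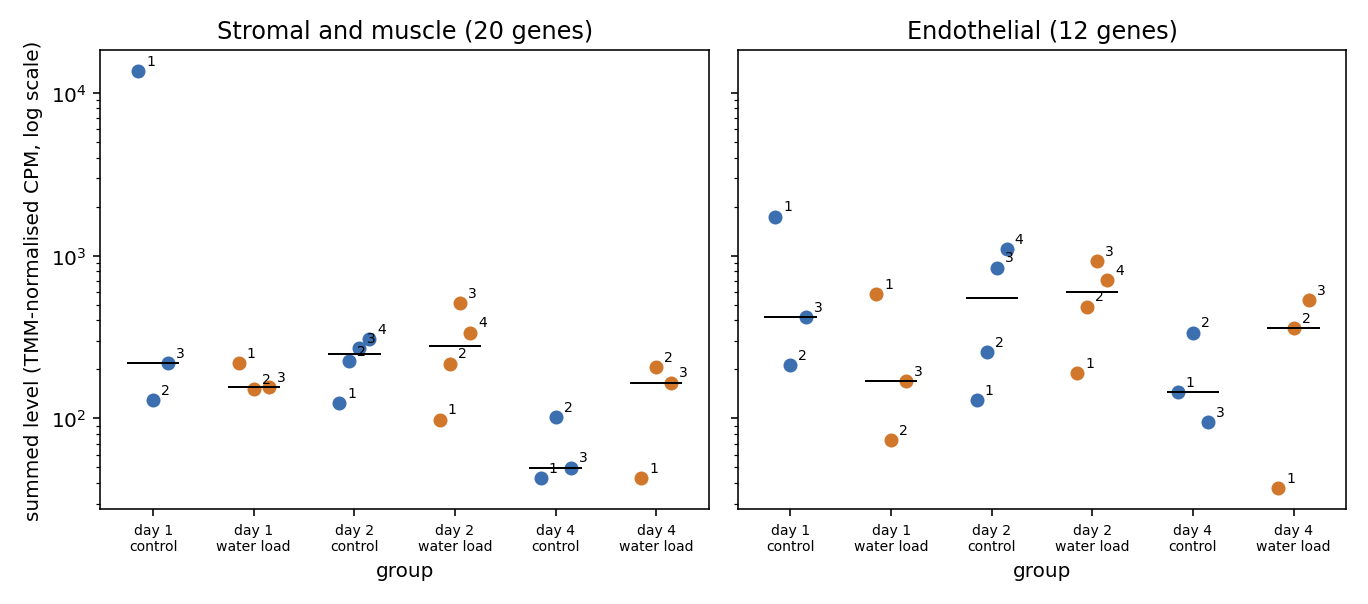
Summed CPM of the 20 stromal and muscle genes and of the 12 endothelial genes in each library (points with the rat's number, log scale; blue, control; orange, water-loaded; lines, group medians) by day and treatment. Day 1 control 1 lies at 13603 CPM on the stromal panel, while the other 19 libraries lie between 42.8 and 511 CPM, and the endothelial sums overlap between control and water-loaded rats at each day.

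Smooth muscle genes were among those with the widest gaps. In the lists of values that follow, a group's libraries are in the order of the rats' numbers, and each value is a level in CPM. Myh11 (ENSRNOG00000057880), the smooth muscle myosin heavy chain, stood at 1569, 3.88 and 2.68 CPM in day 1 controls and at 1.82, 17.1 and 0.588 CPM in day 1 water-loaded rats. At day 2 Myh11 was 0, 0, 2.87 and 1.59 CPM in controls and 0, 0.0867, 1.31 and 0 CPM in water-loaded rats, and at day 4 it was 0, 0 and 0.0369 CPM against 5.85, 1.96 and 0.0823 CPM. Apart from day 1 control 1, no library passed 17.1 CPM, and the median of those 19 was 0.588 CPM.

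Desmin, the muscle intermediate filament protein (Des, ENSRNOG00000019810), stood at 1875, 3.11 and 0.329 CPM in day 1 controls and at 0.221, 0.238 and 0.131 CPM in day 1 water-loaded rats. Des read 0, 0, 0.528 and 5.41 CPM in day 2 controls and 0, 0, 0.0138 and 2.45 CPM in day 2 water-loaded rats. At day 4 it was 0 in all 3 controls and 0, 0 and 0.762 CPM in water-loaded rats. Des thus had 67852 reads in a single library and none in 9 of the 20.

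Calponin (Cnn1, ENSRNOG00000027736), an actin-binding protein of differentiated smooth muscle, stood at 394, 0.733 and 1.36 CPM in day 1 controls and at 0.0551, 0.0794 and 0.654 CPM in day 1 water-loaded rats. Cnn1 was 0 in all 4 day 2 controls, 0, 0, 0 and 0.396 CPM in day 2 water-loaded rats, 0, 0.0309 and 0.0184 CPM in day 4 controls and 0 in all 3 day 4 water-loaded rats. With no read in 11 libraries, its single value over the floor outside day 1 was that of day 2 water-loaded rat 4. Against the floor, its level in day 1 control 1 was at least 7137-fold higher than the median of the other 19 libraries.

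Transgelin (Tagln, ENSRNOG00000017628), another actin-binding protein of smooth muscle, had reads in every library. It stood at 480.5, 2.62 and 0.444 CPM in day 1 controls and at 2.65, 1.06 and 0.327 CPM in day 1 water-loaded rats. Tagln at day 2 was 0.561, 0.0285, 0.166 and 0.308 CPM in controls and 5.48, 3.56, 1.31 and 0.347 CPM in water-loaded rats. At day 4 Tagln was 0.0214, 7.87 and 1.29 CPM in controls and 2.46, 8.17 and 0.226 CPM in water-loaded rats. Of the 20 libraries 11 reached 1 CPM of Tagln.

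Acta2 (ENSRNOG00000058039), the smooth muscle actin by which these cells are usually recognised, had few reads even in the library richest in muscle genes. It had 669 reads in day 1 control 1, a level of 18.5 CPM, and no read in 11 of the 20 libraries. Acta2 was 0.0183 and 0.0164 CPM in the other day 1 controls, 0, 0 and 0.0218 CPM in day 1 water-loaded rats, 0, 0.456, 0 and 0.0162 CPM in day 2 controls and 0.0308, 0, 0.0138 and 0 CPM in day 2 water-loaded rats. At day 4 it was 0.0428, 0 and 0 CPM in controls and 0 in all 3 water-loaded rats. On the authors' FPKM scale, which divides by gene length and so allows genes to be compared, Acta2 stood at 8.61 in day 1 control 1 beside 557 for Des, 300 for Tagln, 169.6 for Cnn1 and 157 for Myh11. Counts and FPKM depend on the gene model used for counting, which was not examined here. Rgs5 (ENSRNOG00000002730), a regulator of G protein signalling used as a pericyte marker, followed the muscle genes with 71.8 CPM in day 1 control 1. Rgs5 was 0.128 CPM in day 1 control 2, 0.0218 CPM in day 1 water-loaded rat 3, 0.891 CPM in day 2 control 3, 0.0138 CPM in day 2 water-loaded rat 3 and 0 in the other 15 libraries.

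Promoter sequence is shown for Acta2 and Des because both are smooth muscle genes that were highest in the same library at very different levels per length. The windows run from 250 bases before to 50 after the annotated start in RefSeq's GRCr8 assembly, a later build than the rn6 build of the counts, and 18 of the 32 genes had a window. Capitals in the Acta2 window mark places a single base away from the CArG box, the site bound by serum response factor in muscle gene promoters, and the Des window held none; this search with a base of tolerance was added after the exact search had been run. Acta2 lies at chr1:241172454-241172753 on the minus strand and Des at chr9:84299376-84299675 on the plus strand.
Acta2: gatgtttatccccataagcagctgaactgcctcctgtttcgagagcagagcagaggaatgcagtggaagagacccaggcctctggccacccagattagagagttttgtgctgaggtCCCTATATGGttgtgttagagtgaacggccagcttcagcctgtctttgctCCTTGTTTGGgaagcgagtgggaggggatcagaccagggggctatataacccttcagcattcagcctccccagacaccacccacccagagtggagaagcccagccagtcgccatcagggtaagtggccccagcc
Des: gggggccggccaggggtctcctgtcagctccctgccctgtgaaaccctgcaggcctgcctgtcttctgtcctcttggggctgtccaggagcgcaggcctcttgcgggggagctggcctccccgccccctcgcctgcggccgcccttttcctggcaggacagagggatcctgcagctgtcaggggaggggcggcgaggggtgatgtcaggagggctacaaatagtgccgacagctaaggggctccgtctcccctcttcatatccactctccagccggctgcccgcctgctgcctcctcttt

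An exact CArG box was in none of the 11 stromal and muscle windows and none of the 7 endothelial windows, and in 1.64% of all 33469 promoter windows. With 1 base of difference allowed on the given strand, whose pattern reads alike on the opposite strand, Acta2, Emcn, Kdr and Tie1 held a match, against 20.1% of all windows. TATAAA on the given strand was in the windows of Col1a2, Postn, Vim, Flt1 and Plvap, and in 8.8% of all windows. These are descriptions of 300-base windows, and no match says only that the letters are not in the window.

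Genes of the elastic matrix were also far higher in day 1 control 1 than elsewhere. Eln (ENSRNOG00000001469) encodes tropoelastin, the elastic core of arterial walls, and stood at 2559, 3.54 and 0.740 CPM in day 1 controls and at 6.14, 0.450 and 0.479 CPM in day 1 water-loaded rats. At day 2 Eln was 7.70, 0.214, 1.16 and 2.30 CPM in controls and 1.40, 0.815, 2.97 and 3.07 CPM in water-loaded rats. Day 4 brought the lowest values, 0.0428, 0.0617 and 0 CPM in controls, against 0.761, 5.45 and 2.70 CPM in water-loaded rats. All 3 day 4 controls lay at or below the floor for Eln, and all 3 day 4 water-loaded rats above it.

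Mgp (ENSRNOG00000005695), the matrix Gla protein that inhibits calcification of vessel walls, was found in all 20 libraries. It stood at 1371, 14.1 and 39.1 CPM in day 1 controls and at 38.1, 1.40 and 11.3 CPM in day 1 water-loaded rats. Mgp at day 2 was 23.1, 6.28, 52.7 and 61.5 CPM in controls and 6.49, 17.2, 134 and 47.2 CPM in water-loaded rats, and at day 4 it was 1.37, 3.64 and 13.0 CPM against 3.05, 46.9 and 21.9 CPM. It had the highest mean FPKM of the 20 genes, 109 over all libraries and 45.8 without day 1 control 1.

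Fibulin 1 (Fbln1, ENSRNOG00000014137), a glycoprotein of elastic fibres and basement membranes, stood at 157, 0.275 and 11.3 CPM in day 1 controls and at 0.0184, 0.0794 and 4.21 CPM in day 1 water-loaded rats. Fbln1 was 0.0156, 0, 0.0302 and 0.178 CPM in day 2 controls and 2.12, 0.0694, 0.235 and 0.0495 CPM in day 2 water-loaded rats. At day 4 it was 0 in all 3 controls and 0.0491, 0.363 and 0.906 CPM in water-loaded rats. Against the floor over the group, its mean in day 4 water-loaded rats was at least 6.21-fold higher than in day 4 controls.

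Sparc (ENSRNOG00000012840), a collagen-binding glycoprotein of matrix and endothelium, was found at 13.7 CPM or more in every library. It stood at 955, 18.4 and 68.8 CPM in day 1 controls and at 90.5, 33.8 and 48.5 CPM in day 1 water-loaded rats. Sparc was 38.4, 97.7, 96.1 and 152 CPM in day 2 controls and 18.1, 126, 190.0 and 159 CPM in day 2 water-loaded rats, and 20.1, 80.5 and 24.8 CPM against 13.7, 42.7 and 75.8 CPM at day 4. Its median FPKM of 34.5 was the highest of the 20 genes, ahead of 30.4 for Mgp and 15.9 for Vim.

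Fibrillar collagens were unevenly high in day 1 control 1. Col3a1 (ENSRNOG00000003357), the chain of type III collagen, stood at 1294, 34.4 and 24.7 CPM in day 1 controls and at 31.6, 0.900 and 4.58 CPM in day 1 water-loaded rats. Col3a1 was 0.140, 6.96, 44.1 and 18.1 CPM in day 2 controls and 5.57, 11.1, 68.0 and 59.3 CPM in day 2 water-loaded rats, and 6.50, 4.57 and 0.406 CPM against 0.0737, 39.3 and 18.9 CPM at day 4. Outside day 1 control 1 it stayed at or below 68.0 CPM.

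Col1a1 (ENSRNOG00000003897), the major chain of type I collagen, stood at 151, 0.311 and 1.15 CPM in day 1 controls and at 2.08, 0.106 and 1.55 CPM in day 1 water-loaded rats. Col1a1 was 0.109, 2.85, 4.23 and 0.729 CPM in day 2 controls and 0.0154, 1.32, 6.83 and 3.05 CPM in day 2 water-loaded rats. At day 4 Col1a1 was 0, 0.0309 and 0.0553 CPM in controls and 1.70, 5.00 and 1.67 CPM in water-loaded rats. Its partner chain Col1a2 (ENSRNOG00000011292) had 59 reads in day 1 control 1, a level of 1.63 CPM, and stood at 0.110 and 0 CPM in the other day 1 controls and 0.184, 0 and 0.0654 CPM in day 1 water-loaded rats. Col1a2 was 0, 0, 0.0755 and 0.114 CPM in day 2 controls, 0.108, 0.104, 0.166 and 0.223 CPM in day 2 water-loaded rats, and 0.0214, 0 and 0 CPM against 0.0246, 0.141 and 0 CPM at day 4. It had no read in 7 libraries. Per length the 2 chains of the same collagen lay at 16.8 FPKM for Col1a1 and 0.247 FPKM for Col1a2 in day 1 control 1, with the same limit as for Acta2.

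Col6a1 (ENSRNOG00000001249), a chain of the microfibrillar type VI collagen, stood at 45.6, 0.0183 and 2.4 CPM in day 1 controls and at 8, 0.450 and 0.763 CPM in day 1 water-loaded rats. Col6a1 was 0, 3.87, 4.08 and 5.79 CPM in day 2 controls and 0.108, 7.15, 11.4 and 5.92 CPM in day 2 water-loaded rats, and 14.6, 0 and 0.0369 CPM against 0.0737, 5.89 and 0.0412 CPM at day 4. The day 4 control value of 14.6 CPM was the highest outside day 1 control 1.

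The small leucine-rich proteoglycans, which organise collagen fibrils, went apart from each other. Decorin (Dcn, ENSRNOG00000004554) stood at 117, 17.3 and 7.84 CPM in day 1 controls and at 33.0, 89.6 and 52.1 CPM in day 1 water-loaded rats. Dcn was 23.8, 22.8, 13.2 and 10.6 CPM in day 2 controls and 43.6, 8.07, 36.7 and 18.0 CPM in day 2 water-loaded rats, and 0.0856, 4.69 and 6.86 CPM against 10.9, 24 and 15.2 CPM at day 4. It was found in every library, and day 1 water-loaded rat 2 came close to day 1 control 1. Lumican (Lum, ENSRNOG00000004610) stood at 41.5 CPM in day 1 control 1, at 0.0733 CPM in day 1 control 2 and at 0 in the other 18 libraries. Periostin (Postn), a matrix protein of activated fibroblasts, had no read in any of the 20 libraries.

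Vimentin, the intermediate filament protein of mesenchymal and endothelial cells (Vim, ENSRNOG00000018087), stood at 2503, 30.8 and 56.6 CPM in day 1 controls and at 4.96, 0.715 and 30.5 CPM in day 1 water-loaded rats. At day 2 Vim was 30.5, 57.8, 46.3 and 37.6 CPM in controls and 12.4, 33.2, 47.0 and 31.5 CPM in water-loaded rats. Vim stood at 0.0214, 0 and 3.37 CPM in day 4 controls, as deposited counts of 1, 0 and 183 reads, and at 1.97, 20.6 and 21.7 CPM in day 4 water-loaded rats. The day 2 libraries spanned 12.4 to 57.8 CPM, and day 4 controls 1 and 2 were the lowest of the 20.

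The PDGF receptors, by which pericytes and fibroblasts respond to platelet-derived growth factors, were the exception among the stromal genes. Pdgfrb (ENSRNOG00000018461), the receptor of pericytes and smooth muscle, stood at 0.332, 0.0183 and 0.887 CPM in day 1 controls and at 0.386, 0.0265 and 0 CPM in day 1 water-loaded rats. Pdgfrb was 0.296, 25.6, 0.785 and 8.43 CPM in day 2 controls and 2.94, 6.26, 9.37 and 2.45 CPM in day 2 water-loaded rats, and 0, 0.0309 and 0.0184 CPM against 1.62, 5.37 and 4.28 CPM at day 4. Day 1 control 1 was the 13th highest of the 20 libraries for Pdgfrb, with 12 reads. Pdgfra, the receptor of fibroblasts, had no read there or in 10 other libraries, and its highest value was 4.55 CPM in day 1 water-loaded rat 2. Pdgfra was 0, 0, 2.42 and 0.940 CPM in day 2 controls and 0, 2.20, 1.96 and 3.10 CPM in day 2 water-loaded rats.

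Day 1 control 1 was the highest of the 20 libraries for 17 of the 20 stromal and muscle genes, the exceptions being Pdgfrb, Pdgfra and Postn, and for 8 of the 12 endothelial genes. Over all genes tested, 18.9% were highest in that library. It lay over 10 times above the median of the other 19 for 16 stromal and muscle genes and for 4 endothelial genes, against 4.91% of all genes. These are descriptions of a single library, with no replicate to set them against. The members were chosen with earlier results of these data known, so the shares over all genes are no test of them. The counts also include Acta2, Lum and Rgs5, which did not pass the filter on low counts, while the shares cover genes that did.

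**Figure D2:**
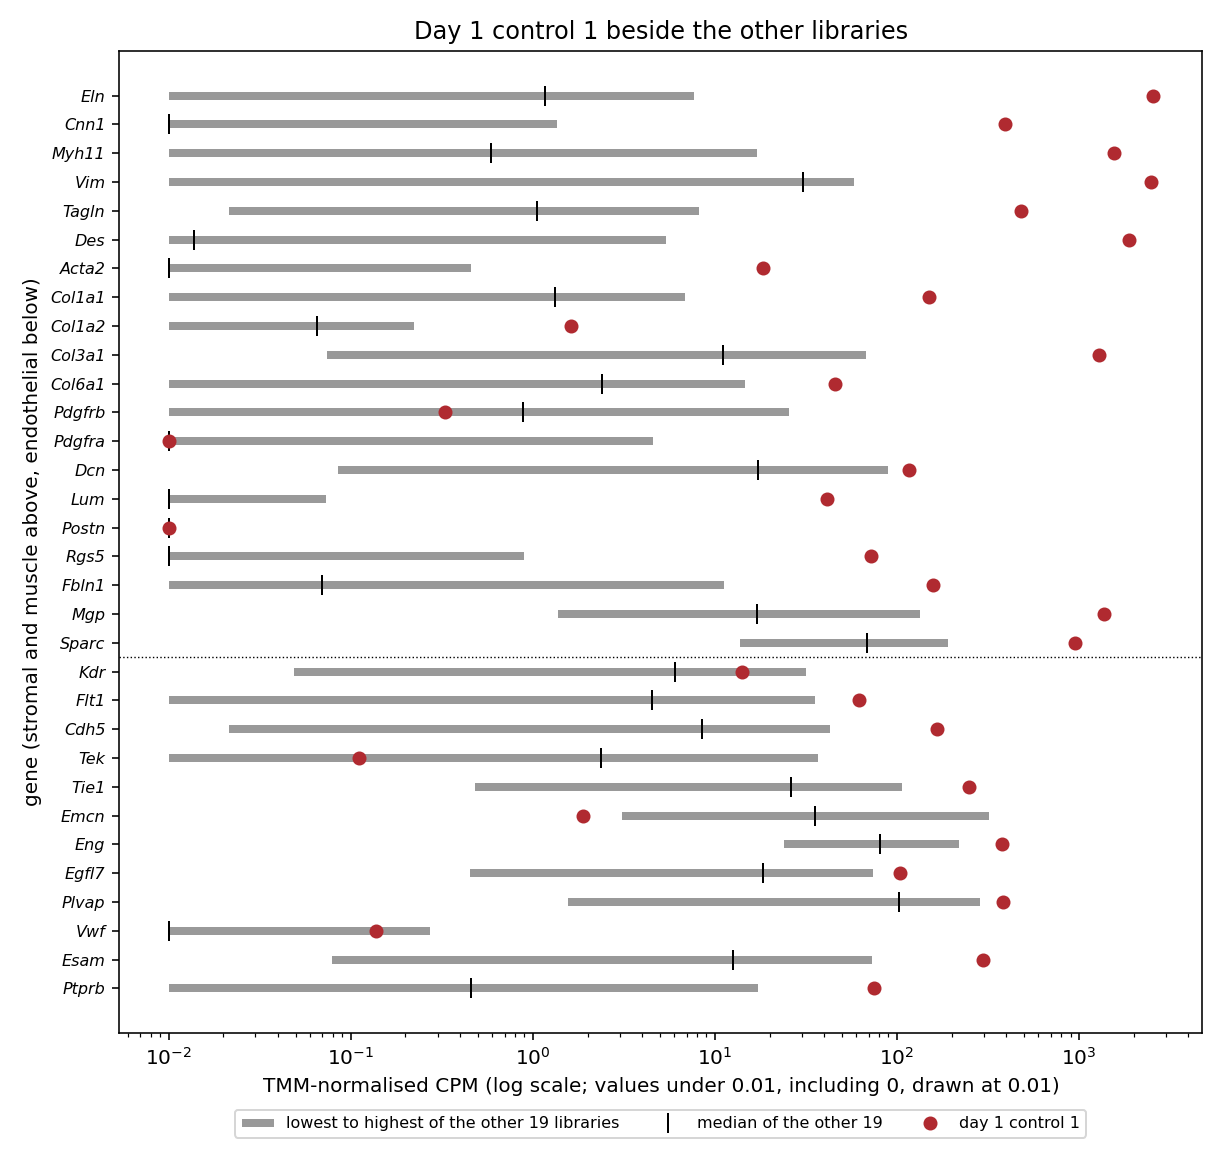
CPM of each of the 32 genes in day 1 control 1 (red points) beside the span (grey bars) and median (black ticks) of the other 19 libraries, on a log scale with values under 0.01 drawn at 0.01. For 17 of 20 stromal and muscle genes the red point lies to the right of the bar, while Emcn lies to the left of its bar at 1.88 CPM.

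The endothelial genes did not move as a block in day 1 control 1. Plvap (ENSRNOG00000017676), the diaphragm protein of fenestrated capillaries, had the highest median FPKM of the 12 at 77.6, followed by Emcn at 28.6 and Eng at 26.0. Plvap stood at 383, 52.9 and 156 CPM in day 1 controls and at 159, 26.0 and 65.7 CPM in day 1 water-loaded rats. Plvap was 24.3, 71.9, 271 and 287 CPM in day 2 controls and 24.2, 128, 241 and 251 CPM in day 2 water-loaded rats, and 64.5, 163 and 26.5 CPM against 1.57, 103 and 208 CPM at day 4. Treated and control rats overlapped at each day.

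Emcn (ENSRNOG00000022910), endomucin, a sialomucin of capillary and venous endothelium, went the other way. It stood at 1.88, 45.9 and 95.2 CPM in day 1 controls and at 57.3, 3.10 and 13.2 CPM in day 1 water-loaded rats. Emcn was 9.33, 57.8, 100 and 322 CPM in day 2 controls and 34.8, 60.9, 194 and 129.9 CPM in day 2 water-loaded rats, and 5.54, 11.9 and 5.35 CPM against 4.08, 35.7 and 21.6 CPM at day 4. Day 1 control 1 was the lowest of the 20 libraries for Emcn while it was the highest for 8 other endothelial genes.

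Eng (ENSRNOG00000050190), endoglin, a co-receptor of the TGF-beta family, had the narrowest span of the 12 endothelial genes relative to its lowest value, 24 to 379 CPM. It stood at 379, 76.2 and 45.8 CPM in day 1 controls and at 219, 39.7 and 53.9 CPM in day 1 water-loaded rats. Eng was 45.3, 80.9, 168 and 213 CPM in day 2 controls and 64.1, 153, 219 and 151 CPM in day 2 water-loaded rats, and 36.3, 85.2 and 36.2 CPM against 24, 114 and 138 CPM at day 4. Its day 2 values overlapped between treatments, as did those at days 1 and 4.

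The receptors for angiopoietins and VEGF, which govern capillary growth and stability, were split in day 1 control 1. Tie1 (ENSRNOG00000020173), the orphan partner of the angiopoietin receptor, stood at 249.8, 3.33 and 57.8 CPM in day 1 controls and at 49.8, 1.64 and 9.54 CPM in day 1 water-loaded rats. Tie1 was 0.483, 29.2, 107 and 63.6 CPM in day 2 controls and 24.2, 26.4, 56.3 and 41.8 CPM in day 2 water-loaded rats, and 13.1, 26.0 and 11.9 CPM against 0.565, 27.5 and 39.9 CPM at day 4. Tek, the angiopoietin receptor itself, had 4 reads in day 1 control 1, a level of 0.111 CPM, and ranked 15th there.

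Flt1 (ENSRNOG00000000940), a VEGF receptor that binds its ligand tightly, stood at 62.2, 4.51 and 0.904 CPM in day 1 controls and at 15.6, 0.397 and 6.04 CPM in day 1 water-loaded rats. Flt1 was 0, 0, 28.5 and 35.6 CPM in day 2 controls and 3.06, 9.02, 28.6 and 6.86 CPM in day 2 water-loaded rats, and 2.50, 1.94 and 0.0922 CPM against 0, 11.9 and 19.6 CPM at day 4. Kdr, the main signalling receptor for VEGF, stood at 14.1 CPM in day 1 control 1, the 6th highest, and at 0.0491 to 31.7 CPM elsewhere. The highest Kdr values were 31.7 CPM in day 4 water-loaded rat 3 and 30.1 CPM in day 2 water-loaded rat 3.

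Junction genes were over 10 times the median of the other libraries in day 1 control 1. Cdh5 (ENSRNOG00000013324), VE-cadherin, stood at 167, 0.458 and 17.2 CPM in day 1 controls and at 16.1, 0.741 and 0.414 CPM in day 1 water-loaded rats. Cdh5 was 3.50, 0.228, 39.9 and 24.9 CPM in day 2 controls and 8.49, 10.5, 43.0 and 27.4 CPM in day 2 water-loaded rats, and 0.0214, 2.31 and 4.26 CPM against 0.0491, 10.2 and 16.4 CPM at day 4. In day 1 control 1 it was 19.7 times the median of the other 19 libraries.

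Esam (ENSRNOG00000033217), an adhesion molecule of endothelial tight junctions, stood at 298, 0.623 and 12.6 CPM in day 1 controls and at 4.49, 0.0794 and 3.79 CPM in day 1 water-loaded rats. Esam was 26.3, 4.74, 16.2 and 73.2 CPM in day 2 controls and 2.34, 19.8, 29.6 and 28.6 CPM in day 2 water-loaded rats, and 4.81, 23.2 and 3.00 CPM against 0.197, 21.8 and 35.6 CPM at day 4. It was 23.7 times the median of the others in day 1 control 1.

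Ptprb (ENSRNOG00000055293), the phosphatase that dampens Tek and VE-cadherin signalling, stood at 75.0, 4.29 and 0.0657 CPM in day 1 controls and at 0.0184, 0.0265 and 2.00 CPM in day 1 water-loaded rats. Ptprb was 0.0312, 0.456, 3.58 and 4.57 CPM in day 2 controls and 0, 17.2, 4.71 and 1.24 CPM in day 2 water-loaded rats, and 0, 0 and 1.33 CPM against 0, 3.37 and 0.0412 CPM at day 4. Its ratio to the median of the other libraries, 165, was the highest of the 12 endothelial genes.

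Egfl7 (ENSRNOG00000019388), a secreted factor of endothelial cells, stood at 105, 15.5 and 24.9 CPM in day 1 controls and at 18.3, 0.450 and 9.02 CPM in day 1 water-loaded rats. Egfl7 was 19.1, 9.51, 74.2 and 37.2 CPM in day 2 controls and 5.99, 23.5, 44.1 and 41.4 CPM in day 2 water-loaded rats, and 18.7, 21.9 and 1.94 CPM against 4.35, 17.2 and 16.1 CPM at day 4. Vwf, von Willebrand factor, the classical marker of larger vessels, had no read in 18 of the 20 libraries, and its 2 other values were 0.272 CPM in day 2 control 3 and 0.138 CPM in day 1 control 1.

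**Figure D3:**
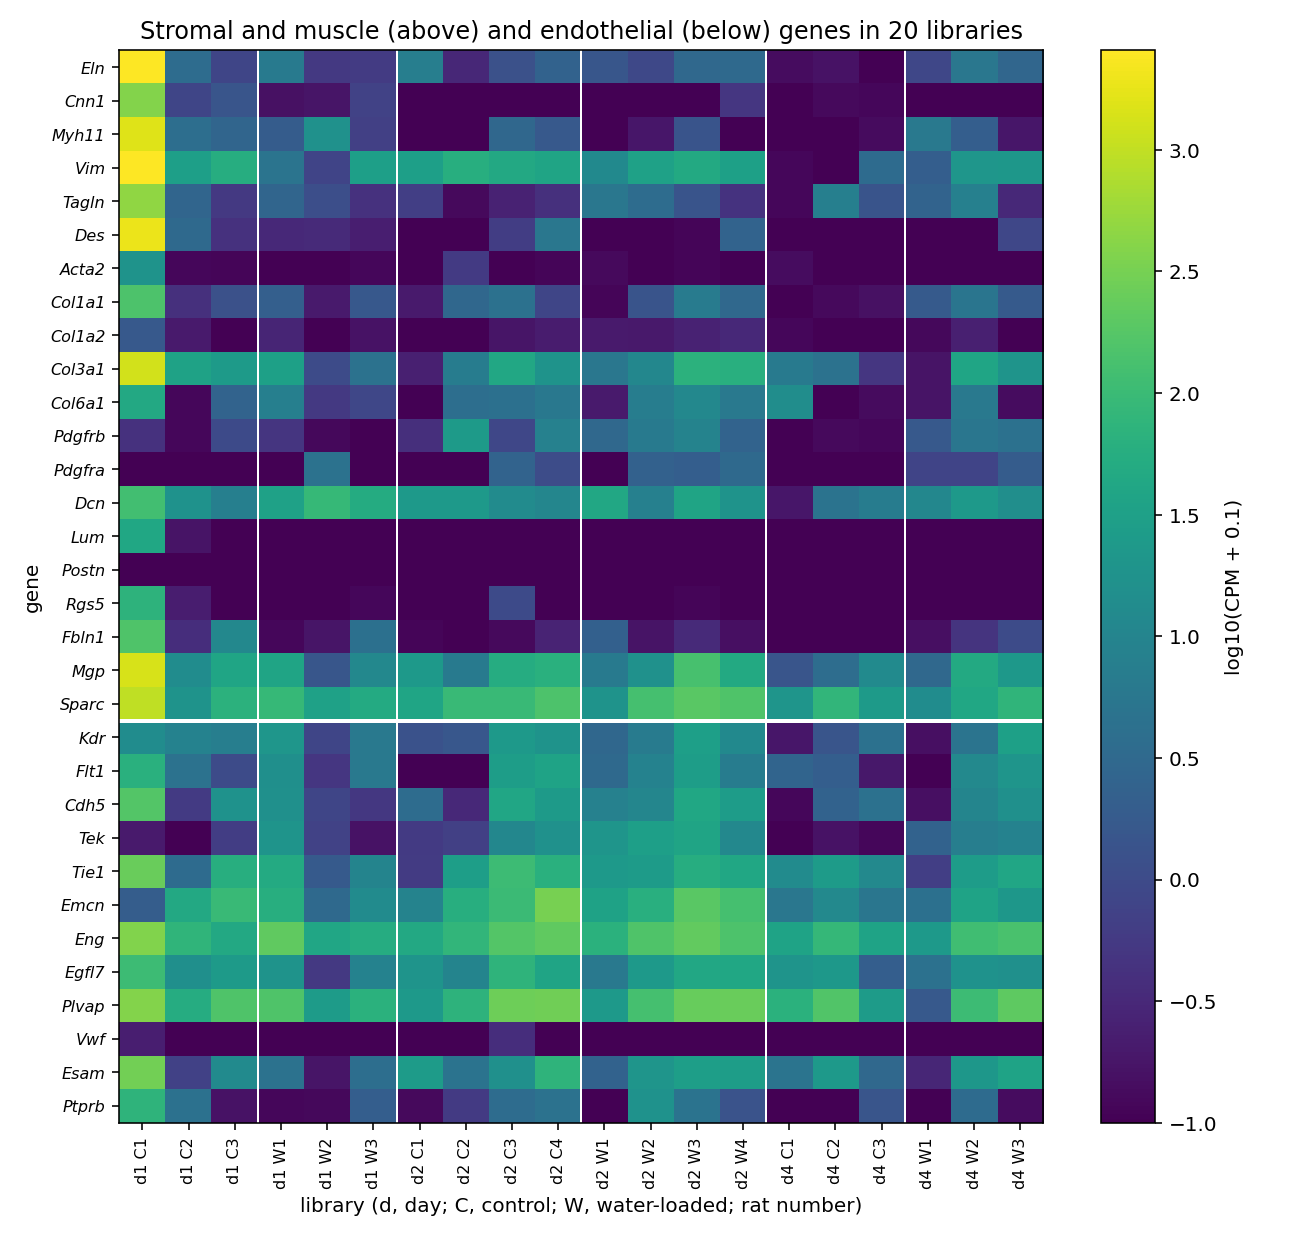
Heat map of log10(CPM + 0.1) for the 32 genes (rows, stromal and muscle above the white line, endothelial below) in the 20 libraries (columns, white lines between groups). The first column, day 1 control 1, holds the highest value of the row for 17 of the 20 stromal and muscle rows, and the day 2 libraries numbered 3 and 4 have higher endothelial sums, 703 to 1097 CPM, than those numbered 1 and 2, though not in every row.

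Other genes of the vessel wall that are not among the 32 were read from related lists in the same library. The contractile list of 16 genes summed to 4129 CPM in day 1 control 1 and to 216 to 714 CPM elsewhere, and it included Tpm2, a muscle tropomyosin, at 728 CPM and Actg2, an enteric smooth muscle actin, at 44.1 CPM. The matrix list of 17 genes summed to 1283 CPM against 54.0 to 269.8 CPM, with Bgn, the proteoglycan biglycan, at 509 CPM. The elastic fibre list of 15 genes summed to 1770 CPM against 126 to 313 CPM, with Ltbp4, a TGF-beta binding protein of elastic fibres, at 669 CPM. Not every gene of these lists was high there. Day 1 control 1 was the highest library for 13 of 17 contractile, 9 of 18 matrix and 7 of 15 elastic fibre entries, some symbols having more than 1 entry. Efemp1 was at its lowest of the 20 libraries, 0.442 CPM against a median of 26.6 CPM, and Thbs1 had no read against a median of 2.45 CPM.

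A further 18 endothelial genes summed to 916 CPM in day 1 control 1 against 7.42 to 221 CPM elsewhere, with Nos3, the endothelial nitric oxide synthase, at 211 CPM. Of these 18 genes, 7 were highest in that library. Ets1 and Ehd3 were at their lowest of the 20 libraries there, with 1 read each, and Robo4 had no read. Sums of the lymphatic list, 0.663 CPM against 0.0617 to 13.1 CPM, and of the vessel growth factors, 84.7 CPM against 27.3 to 278 CPM, lay within the others' span. Among the growth factors Tgfb3 was the exception at 31.4 CPM. Podxl, which podocytes and endothelium share, stood at 285 CPM, while the podocyte genes Nphs1 and Wt1 had no read in any library. Proximal tubule markers, 777 CPM, and immune markers, 114 CPM, were inside the span of the other libraries. The proximal tubule sum lay well above the others' median of 96.9 CPM. Higher sums were 6167 CPM in day 1 water-loaded rat 2 and 2384 CPM in day 2 control 1. Intercalated cell markers, 7186 CPM, were the lowest of the 20 but close to 7228 and 7312 CPM in the other day 1 controls.

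Whether these levels differed between days was tested among the 10 control rats with edgeR's quasi-likelihood test, in a model fitted to all 14472 genes that passed a filter on low counts in all 20 libraries. Of the 32 genes 27 passed, and Acta2, Lum, Postn, Rgs5 and Vwf did not; the filter keeps a gene that is high enough in as few libraries as the smallest group. At a Benjamini-Hochberg adjusted p of 0.05, 9 of the 16 stromal and muscle genes tested differed between days and none of the 11 endothelial genes, where 2.45% of all genes did. The adjusted p was 0.00929 for Eln, 0.0171 for Cnn1, 0.0219 for Fbln1, 0.0239 for Myh11 and 0.0278 for Vim. It was 0.0324 for Tagln, 0.0403 for Des, 0.0419 for Col1a1 and 0.0495 for Pdgfrb. For Tek it was 0.0539, the smallest of the endothelial genes. At an unadjusted p under 0.05 there were 15 stromal and muscle and 2 endothelial genes, Tek and Emcn, against 22.5% of all genes. Without day 1 control 1 there were 7 and 2, against 16.8%.

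These calls rested on few libraries. Without day 1 control 1 none of the 27 genes was called (smallest adjusted p 0.120 among the stromal and muscle genes), and the number over all genes fell from 355 to 43. Without day 4 control 1 Eln alone was called, without day 4 control 2 Cnn1, Eln, Fbln1 and Tagln were, and without day 4 control 3 or day 2 control 3 there were 5. With DESeq2, 8 of the 27 genes were called, and of the 9 above those were Fbln1 and Pdgfrb. For Eln, Cnn1, Myh11, Vim, Tagln, Des and Col1a1 DESeq2 returned no adjusted p, so it neither called nor failed to call them. Leaving day 1 control 1 out, the stromal sum was 130 and 218 CPM in day 1 controls, 125 to 306 CPM in day 2 controls and 42.8 to 101 CPM in day 4 controls, so that all 3 day 4 controls lay below the other 6. Principal cell markers, a sum weighted to Aqp2, came to 53576, 67634 and 32846 CPM in day 4 controls 1, 2 and 3. They summed to 23840 to 37120 CPM in the other 7 controls, and their part in the result was not tested.

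The effect of the water load was asked at each day. At day 1, Cnn1, Des and Vim were the genes tested whose 3 water-loaded values all lay below all 3 control values, 3 of 16 stromal and muscle genes and 0 of 11 endothelial genes, where 10.9% of all genes did not overlap in either direction. None of the 27 genes was called at day 1, and edgeR called 0% of all genes there; DESeq2 called Col3a1, Esam, Fbln1, Mgp, Pdgfra and Tek, in a table where it called 1126 genes. An unadjusted p under 0.05 was reached by 12 stromal and muscle genes and by Esam and Tek, against 15.6% of all genes. For Eln the fitted log2 difference, water load minus control, was -8.49 ± 2.25 (SE, adjusted p = 0.189) and for Mgp -4.81 ± 1.64 (SE, adjusted p = 0.235). The median over the stromal and muscle genes was -5.24 and over the endothelial genes -1.62, beside 0 over all genes.

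Without day 1 control 1 the day 1 medians were -0.02 over the stromal and muscle genes, 8 of 16 of them higher in water-loaded rats, and -0.59 over the endothelial genes. No member then had an unadjusted p under 0.05, against 9.54% of all genes, and the log2 difference was 0.14 ± 1.67 (SE) for Eln and -0.65 ± 1.33 (SE) for Mgp. The 2 remaining controls and the 3 water-loaded rats overlapped in their stromal sums, 130 and 218 CPM against 220, 151 and 156 CPM. Day 1 water-loaded rat 2 had the highest Pdgfra of the 20 libraries and the highest Dcn outside day 1 control 1. It also had the highest sums of proximal tubule markers, 6167 CPM, and of loop and distal tubule markers, 13418 CPM. The part of these sums in those values was not tested.

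At day 2, with 4 rats a group, the groups overlapped for every one of the 27 genes, where 4.23% of all genes did not. None of the 27 genes had an unadjusted p under 0.05, against 5.23% of all genes. The median log2 difference was 0.56 over the stromal and muscle genes, 11 of 16 higher in water-loaded rats, and -0.02 over the endothelial genes, 5 of 11 higher, beside -0.05 over all genes; with the rats' numbers as a block the endothelial median was 0.39. For Plvap the log2 difference was -0.02 ± 1.00 (SE) and for Sparc 0.36 ± 0.88 (SE), neither beyond its error.

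At day 2 the summed levels divided by the rats' numbers. Endothelial sums were 703 to 1097 CPM in the libraries numbered 3 and 4 of both treatments and 130.0 to 486 CPM in those numbered 1 and 2. Stromal sums were 269.6 to 511 CPM against 98.5 to 225 CPM. The libraries numbered 3 and 4 also had more genes detected, 14490 to 15266 against 13322 to 14373, and immune markers at 289 to 893 CPM against 121 to 321.5 CPM, and the part of either in the result was not tested. What the numbers stand for is not given in the labels. Within numbers 1 and 2 the median log2 difference of the endothelial genes was 1.72, with 9 of 11 higher in water-loaded rats, and within numbers 3 and 4 it was -0.18, with 2 of 11 higher; for the stromal and muscle genes it was 0.28 and 0.79. These values within the numbers carry no test.

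More of the stromal and muscle genes separated at day 4 than at days 1 and 2. All 3 water-loaded values lay above all 3 control values for Eln, Myh11, Col1a1, Pdgfrb, Pdgfra, Dcn and Fbln1, which is 7 of the 16 stromal and muscle genes tested, and for Tek, 1 of 11 endothelial genes. For Fbln1 the value of water-loaded rat 1, 0.0491 CPM, was itself not above the floor. Over all genes 14.7% did not overlap in either direction. None of the 27 genes was called at day 4, where edgeR called 0% of all genes, and 7 stromal and muscle genes and Tek had an unadjusted p under 0.05, against 7.22% of all genes. The median log2 difference was 3.13 over the stromal and muscle genes, 14 of 16 higher, and 1.35 over the endothelial genes, 10 of 11 higher, beside 0 over all genes. With genes that had no read in a group set at their bound, the stromal and muscle median was 2.57. It was 1.57 without water-loaded rat 2, and the endothelial median was 0.39 without water-loaded rat 3.

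The day 4 controls were near 0 for most of the genes that separated, Dcn being the exception, so the reads themselves are given. Tek, the angiopoietin receptor, had 0, 2 and 1 reads in controls and 96, 371 and 439 reads in water-loaded rats (log2 difference 7.86 ± 2.26 (SE), adjusted p = 0.674). Pdgfrb had 0, 1 and 1 reads against 66, 266 and 208 reads (7.70 ± 2.22 (SE), adjusted p = 0.674). Eln had 2, 2 and 0 reads against 31, 270 and 131 reads (6.47 ± 2.38 (SE), adjusted p = 0.674). Each of the 3 genes was at or below 3 reads in every control and well above it in every water-loaded rat. Col1a1 had 0, 1 and 3 reads against 69, 248 and 81 reads, and Dcn 4, 152 and 372 against 445, 1188 and 738. The separation was narrower for Myh11, with 0, 0 and 2 reads against 238, 97 and 4. Fbln1 had 0 reads in each control against 2, 18 and 44, so water-loaded rat 1 did not pass 3 reads.

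Pdgfra had no read in the day 4 controls and 28, 35 and 90 reads in the water-loaded rats, a mean at least 15.3-fold higher against a floor of 3 counts over the group. Vim overlapped, with 1, 0 and 183 reads in controls and 80, 1023 and 1055 in water-loaded rats. The abundant genes overlapped as well. Sparc differed by 0.08 ± 1.01 (SE) on the log2 scale and Plvap by 0.30 ± 1.15 (SE), with adjusted p = 1 for both. Day 4 water-loaded rat 1 had the lowest endothelial sum of the 20 libraries, 37.2 CPM, beside 357 and 535 CPM in the other two.

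The principal cell sum, weighted to Aqp2, was also lower in the day 4 water-loaded rats. It was 15545, 18707 and 23887 CPM there and 32846 to 67634 CPM in the 3 controls. This sum cannot tell fewer principal cells from a lower level of Aqp2. Detected genes numbered 14279 to 14482 in the water-loaded rats against 13071 to 13804 in the controls. The part of the sum and of the genes detected in the stromal values was not tested. With DESeq2, Pdgfra, Pdgfrb and Tek were called at day 4, in a table where that tool called 319 genes.

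**Figure D4:**
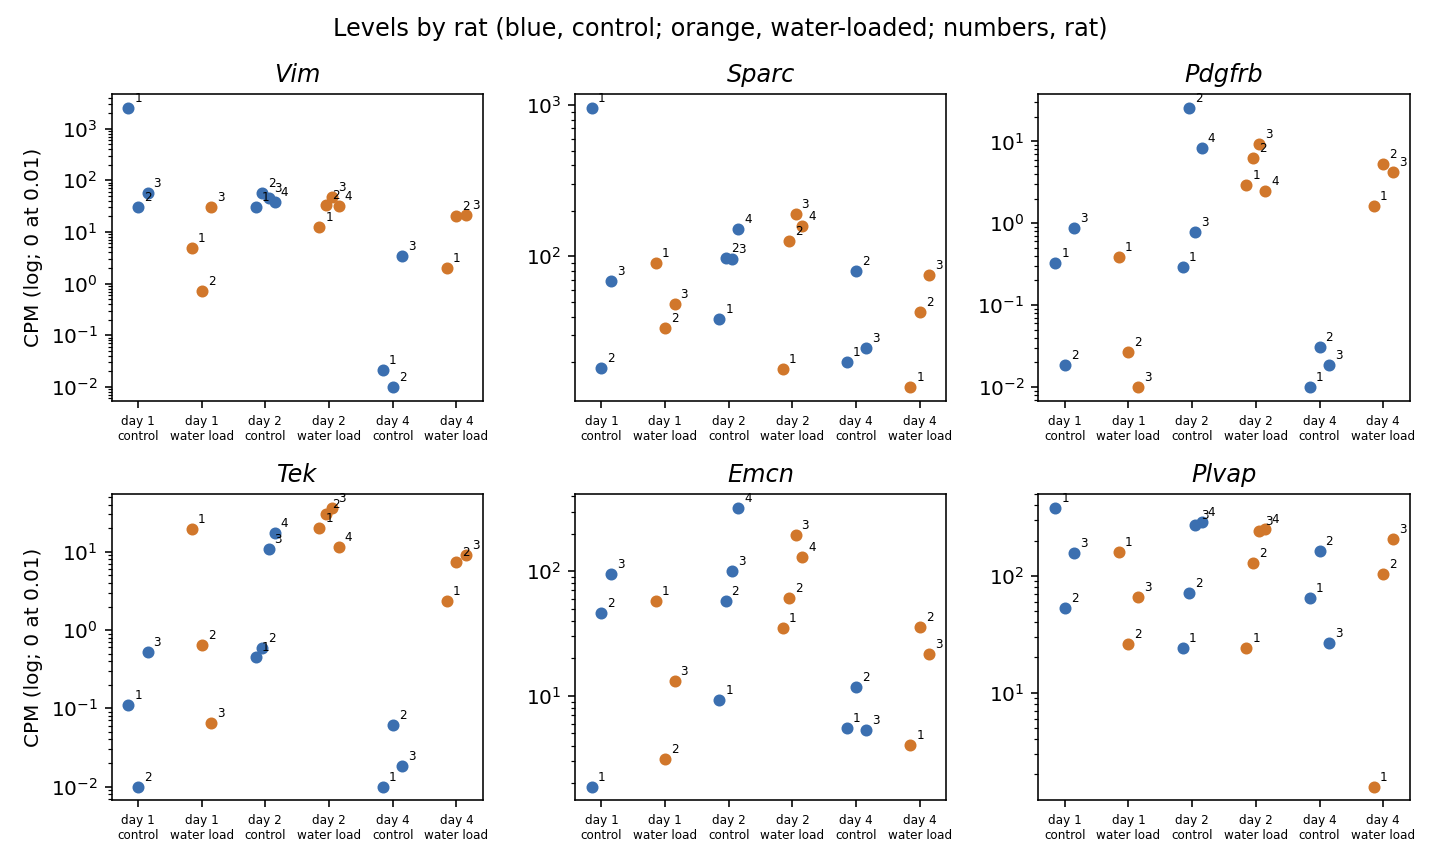
CPM (log scale, 0 drawn at 0.01) of Vim, Sparc, Pdgfrb, Tek, Emcn and Plvap in each library (points with the rat's number; blue, control; orange, water-loaded). Day 1 control 1 stands highest for Vim and Sparc and lowest for Emcn, and at day 4 the control values of Pdgfrb and Tek lie below every water-loaded value.

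Averaged over the 3 days, no gene of the 32 was called with edgeR, where 0.159% of all genes were, 23 genes, or 5 with the rats' numbers as a block. The smallest adjusted p was 0.0732 for Tek, higher by 4.86 ± 1.09 (SE) on the log2 scale in water-loaded rats, and the next was 0.168 for Pdgfra. An unadjusted p under 0.05 was reached by these 2 genes, against 13.5% of all genes. Tek was called with DESeq2, with limma-voom and with a filter at a mean of 5 CPM. It stood at 0.111, 0 and 0.526 CPM in day 1 controls and 19.3, 0.635 and 0.0654 CPM in day 1 water-loaded rats, and at 0.452, 0.584, 10.8 and 17.1 CPM against 19.9, 30.3, 36.7 and 11.5 CPM at day 2. The groups overlapped at days 1 and 2.

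The sign of the median over the stromal and muscle genes depended on a single library and on the fit. It was -0.66 with all libraries, 6 of 16 higher in water-loaded rats, and 1.36 without day 1 control 1, when all 16 were higher and 5 had an unadjusted p under 0.05; over all genes tested it was 0.01 and 0.07. With all libraries kept it was 0.72 with limma-voom and 0.62 with the rats' numbers as a block. None of the 16 was called in either fit. For the endothelial genes it was -0.32 with all libraries and 0.37 without that library, with 5 and 6 of 11 higher, and 0.26 with limma-voom.

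Whether the effect of the water load differed between days was tested as an interaction. No gene of the 32 was called and 0% of all genes were. An unadjusted p under 0.05 was reached by 11 of the 16 stromal and muscle genes and by none of the 11 endothelial genes, against 8.56% of all genes. Without day 1 control 1 the number was 4 of 16, against 7.44% of all genes. DESeq2 called Fbln1 and Pdgfrb for this difference, and returned no adjusted p for Eln, Cnn1, Myh11, Vim, Tagln, Des, Col1a1 and Col1a2.

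**Figure D5:**
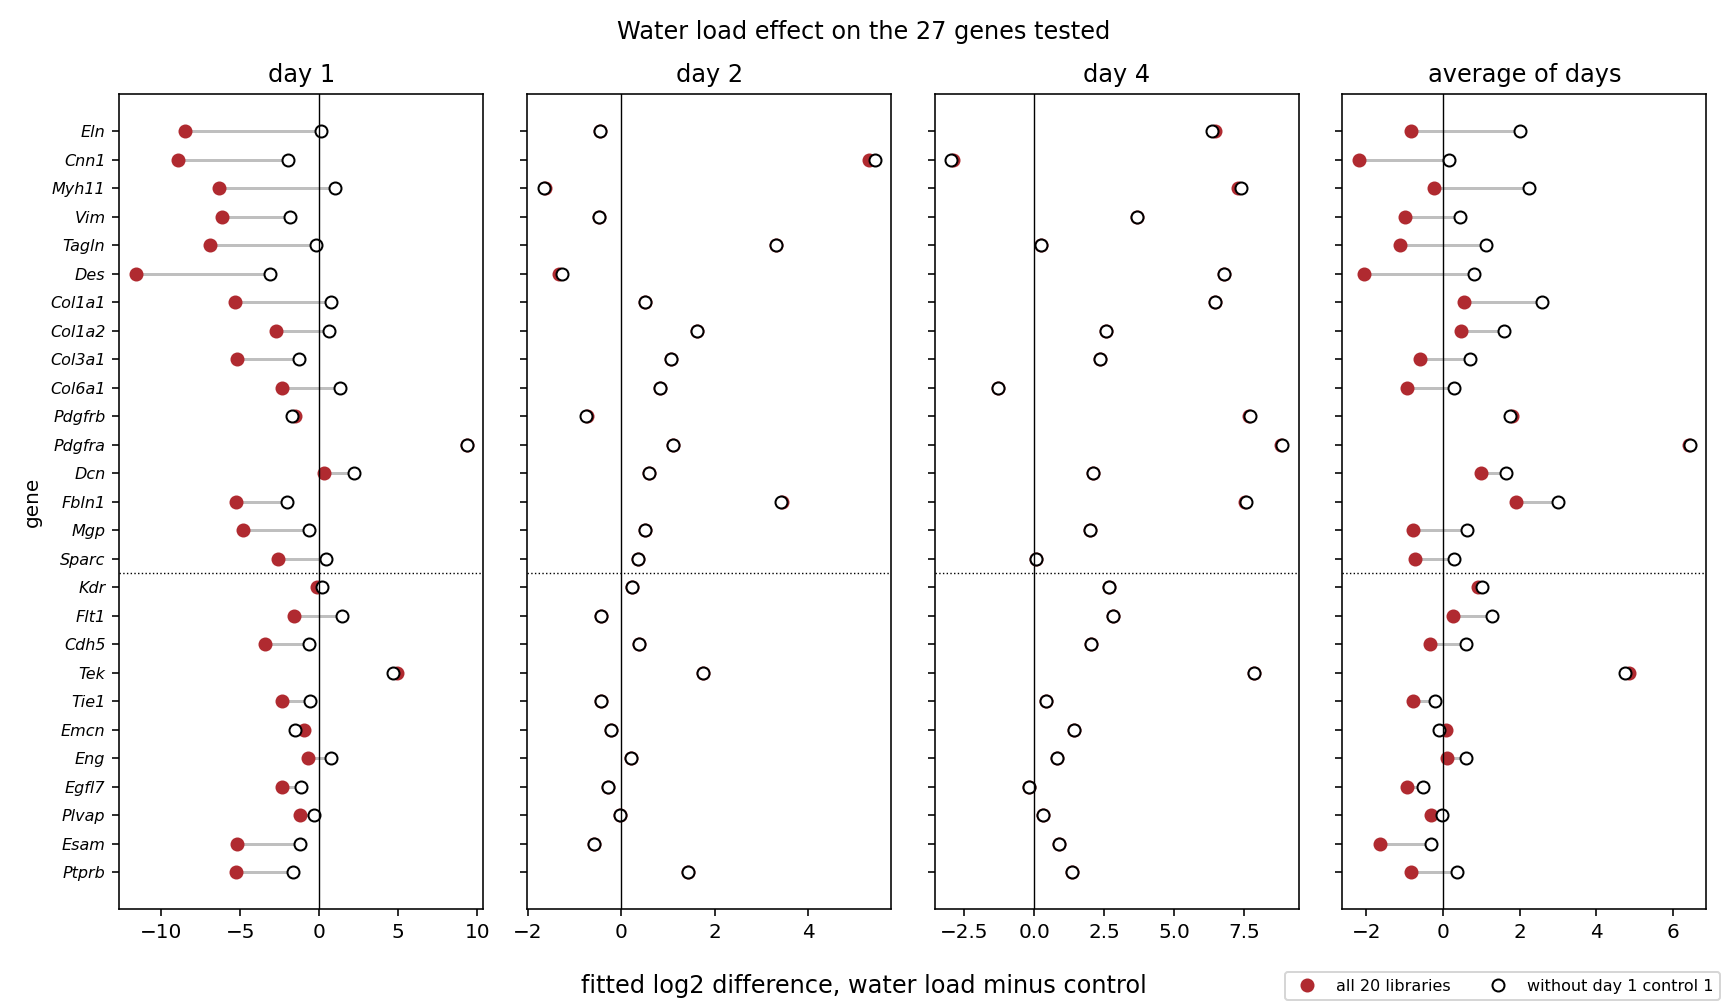
Fitted log2 difference, water load minus control, of the 27 genes tested at each day and over their average, with all 20 libraries (red) and without day 1 control 1 (open circles); axes differ between panels, and fitted values of genes with no read in a group depend on the prior count. At day 1 the stromal and muscle points move from a median of -5.24 to -0.02, and at days 2 and 4 red and open points coincide nearly everywhere.

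Related genes outside the 32 gave 4 calls, all for days among control rats. They were Col6a2, a partner chain of Col6a1, with an adjusted p of 0.0481, and Lama2, a laminin of muscle and vessel basement membranes, with 0.0470. The others were Fbln5, which assembles elastic fibres, and Ppp1r14a, an inhibitor of smooth muscle myosin phosphatase, each with 0.0307. These were 2 of 13 matrix genes tested, 1 of 11 elastic fibre genes and 1 of 11 contractile genes, beside 2.45% of all genes; a test over 3 days gives no direction. All 4 genes were highest in day 1 control 1, and without it none was called, with adjusted p from 0.0575 for Fbln5 to 0.704 for Ppp1r14a. None of 17 further endothelial genes, 2 lymphatic genes or 10 vessel growth factors was called, and no gene of the 6 lists was called for the water load at any day or on average.

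Fbln5 and Lama2 showed the same low day 4 controls as Eln. Fbln5 stood at 173, 2.67 and 0.772 CPM in day 1 controls, at 8.66, 19.8, 9.07 and 14.8 CPM in day 2 controls and at 0, 0 and 0.0553 CPM in day 4 controls. Lama2 stood at 56.8, 15 and 0.115 CPM, then 8.76, 22.6, 2.90 and 9.37 CPM, then 0.0428, 0.0617 and 0.129 CPM. Col6a2 stood at 80.1, 0.183 and 3.27 CPM, then 0.0623, 5.31, 10.3 and 3.81 CPM, and at 0 in all 3 day 4 controls. Ppp1r14a was different, at 194, 4.54 and 2.88 CPM, then 1.71, 1.58, 0.453 and 1.04 CPM, then 5.33, 0.494 and 2.19 CPM.

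Over the average of days, the 3 lowest unadjusted p-values per list all missed the adjusted threshold. Water-loaded rats were higher by 3.40 ± 1.21 (SE) on the log2 scale for Thbs1, the matrix protein thrombospondin, and by 3.12 ± 1.16 for Col6a2, and lower for Col5a2, a fibrillar collagen, at -4.21 ± 1.59. In the elastic fibre list the values were -4.69 ± 1.64 for Fbln2, 1.54 ± 0.88 for Fbln5 and -1.46 ± 1.08 for Ltbp4. In the contractile list they were -1.65 ± 0.48 for Notch3, a receptor of vascular muscle, -3.25 ± 1.23 for the pericyte proteoglycan Cspg4 and -1.75 ± 0.73 for Ppp1r14a. Their adjusted p lay between 0.148 for Notch3 and 0.634 for Ltbp4. Without day 1 control 1 these values were 3.41 for Thbs1, 4.46 for Col6a2, -2.1 for Col5a2, -2 for Fbln2, 3.24 for Fbln5, 0.72 for Ltbp4, -1.02 for Notch3, -0.61 for Cspg4 and -0.36 for Ppp1r14a, and none was called.

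Among the further endothelial genes the log2 difference was -3.55 ± 1.26 (SE) for the transcription factor Sox18, 3.25 ± 1.37 for the guidance receptor Robo4 and 2.86 ± 1.28 for the apelin receptor Aplnr. The lymphatic markers Lyve1 and Flt4 had 4.52 ± 1.64 and 1.53 ± 0.98. Of the growth factors, Pdgfc, a ligand of Pdgfra, had -7.29 ± 2.01, Pgf, a ligand of Flt1, had 6.74 ± 2.11, and Angpt1, the ligand of Tek, had 3.41 ± 1.38. Without day 1 control 1 each of the 8 kept its direction and none was called. Adjusted p with all libraries lay between 0.136 for Pdgfc and 0.546 for Flt4, and most libraries had no read of Pdgfc, Pgf or Angpt1, so their fitted values depend on the prior count.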

How the data were processed

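RNA from microdissected cortical collecting ducts of 20 rats was amplified and sequenced. Read counts per gene and FPKM were deposited by the authors. Per the submitters' processing notes, the tools were Trimmomatic 0.32, STAR 2.4.0.1, SAMtools and HTSeq, with the rn6 build; no annotation release or strand option is named there. Per the deposited table's own summary lines, reads on no gene, 31.45% to 35.61% of each library, stayed out of library sizes. FPKM from the authors was used to set genes of different length side by side and as an alternative scale.

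Counts were fitted with edgeR 4.0.16 (R 4.3.3) across 14472 genes after its filter on low counts, with TMM scaling, 6 groups and no covariate, robust dispersions and the quasi-likelihood test; calls are at a Benjamini-Hochberg adjusted p of 0.05. Group was taken from each sample's title, and replicates are separate rats by their labels. The script was tested on simulated data. Alternatives used DESeq2 1.42.0, limma 3.58.1 (voom, and log2 of FPKM with 2 pseudocounts, 1 and 0.1), other filters, DESeq2 size factors, a replicate block and each library left out. Floors are 3 counts. The SE printed with an edgeR log2 difference is that difference, without its sign, divided by the square root of the test's F. It was not estimated separately and can be very large for genes with no read in some groups, as for Cnn1 over the average of days (6802).

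The rats' numbers were checked as pairs. At day 2 same-numbered control and water-loaded libraries deviated together weakly (correlations of deviations 0.148, 0.147, 0.154 and 0.236). Day 2 control 3 correlated most with water-loaded rat 4, not with its own number. At day 1 (-0.05, -0.06 and 0.06) and day 4 (-0.0037, -0.03 and -0.09) same-numbered libraries did not deviate together. The members and gene lists were chosen with earlier results of these data known. Every member is accounted for, with values in each library for members called in any contrast, the 6 of each class with the highest mean FPKM and those over 10 times the median in day 1 control 1; from the related lists, called genes and the 3 with the smallest p over the average are named. No RefSeq window was used for the other 14 genes.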

Additional observations from a re-analysis of the deposited data

Results flagged for a closer look

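In the day 2 groups of 4 libraries, 9 of 60 sets of values held a library whose gap to its nearest neighbour was past Dixon's 95% critical value. For normally distributed values chance gives about 1 in 20 such sets. CPM values near 0 are not so distributed, so the 9 cannot be set against that rate. Where all other libraries of the group had no read, as for Rgs5, Vwf and Cnn1, the gap was the whole range by construction. In day 2 controls, Des stood at 5.414 CPM in rat 4, Fbln1 at 0.1783 CPM in rat 4, Acta2 at 0.4557 CPM in rat 2, and Rgs5 at 0.8909 CPM and Vwf at 0.2718 CPM in rat 3, each the highest of its 4. In day 2 water-loaded rats, Des stood at 2.452 CPM and Cnn1 at 0.3962 CPM in rat 4, Myh11 at 1.312 CPM in rat 3 and Fbln1 at 2.123 CPM in rat 1. Groups of 3 libraries, which include day 1 control 1, were not examined in this way.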

How the results depend on the processing

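Counts of calls moved with the tool more than with any scaling. DESeq2 called 708 genes over the average of days, 1126 at day 1, 77 at day 2, 319 at day 4, 190 for the difference between days and 1586 among control rats. Of the members it called 1 stromal and 1 endothelial gene over the average, 4 and 2 at day 1, 2 and 1 at day 4, and 2 and 0 for the difference between days. Among control rats it called 8 members, the stromal genes Col3a1, Dcn, Fbln1, Mgp, Pdgfrb and Sparc and the endothelial genes Emcn and Tek. It returned no adjusted p for Eln, Cnn1, Myh11, Vim, Tagln, Des, Col1a1 and Col1a2, either there or for the difference between days. limma-voom called 63, 2, 20, 0 and 1 genes for the same water-load comparisons in that order, 1 endothelial gene over the average and 2 stromal genes among control rats. On log2(FPKM + 1) there were 2 genes at day 1 and 2 at day 4, and 1 stromal gene among control rats; on log2(FPKM + 0.1) there were 13 over the average, 1, 2 and 3 at days 1, 2 and 4, 1 for the difference between days, and 2 stromal genes among control rats. A mean of at least 5 CPM gave 567 genes among control rats, with 8 members, of which 1, Tek, was endothelial. With that filter 1 endothelial gene was called over the average. The stromal median at day 1 was -2.6 with limma-voom, -2.16 and -2.85 on the 2 FPKM scales, and at day 4 it was 0.49 on log2(FPKM + 1), where low genes are compressed by construction.

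With a replicate block, 5 genes were called over the average and the stromal median at day 1 was -2.43; the block changed no call of a member, and days among control rats could not be fitted with it. With day 1 control 1 and day 1 water-loaded rat 2 both set aside, that median was -0.064 and 185 genes and 0 stromal genes were called among control rats. Leaving out each library in turn, calls over the average ranged from 6 (without day 4 control 1) to 37 (without day 1 control 3), at day 1 from 0 to 9, for the difference between days from 0 to 3, and among control rats from 43 to 563, with 0 to 10 stromal and 0 to 1 endothelial genes. The stromal median ranged from -1.04 to 1.36 over the average and from -5.9 to -0.0213 at day 1, and the endothelial median from -0.592 to 0.369 and from -2.78 to -0.586; the upper end of each came without day 1 control 1. At day 4 they ranged from 1.57 to 3.87 and from 0.392 to 1.93, and at day 2 from 0.213 to 0.985 and from -0.567 to 0.582. Over the average, the stromal median was 0.717 with limma-voom and 0.621 with the replicate block, and the endothelial median was 0.258 with limma-voom and 0.0472 and 0.198 on the FPKM scales, each with the sign opposite to the edgeR fit; the endothelial median at day 2 was also above 0 with limma-voom, both FPKM scales, the 5 CPM filter and the block. The cause of the other shifts was not tested. Acta2, Lum, Postn, Rgs5 and Vwf did not pass the filter on low counts and have no test; Postn had no read at any depth reached here.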
